A study of Homo sapiens with 20 samples.

Results

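The 10 genes described here encode heat shock chaperones of the cytosol and the mitochondria: HSPA1A, HSPA1B and HSPA8 (HSP70 proteins), DNAJB1, HSPH1 and BAG3 (partners of HSP70), HSP90AA1, the small heat shock protein HSPB1, and HSPD1 and HSPE1 of the mitochondrial matrix. They were chosen by name, and all 10 were present in each of the 20 RNA-seq libraries, among 36346 gene names. Rows that shared a name were summed. HSPA1A and HSPA1B had 5 rows each, with 97.9% and 85.8% of the summed value in the top row, and every other member had 1 row.

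The libraries came from HT29 and SW480, established human colorectal cancer cell lines in which POLR1D was silenced with siPOLR1D-2 or siPOLR1D-3 or left in place with a scrambled siRNA (SCR). POLR1D codes for a subunit shared by RNA polymerases I and III and lies in a segment of chromosome 13 that the study followed as recurrently gained in colorectal cancer. RNA was taken 72 h after transfection. In HT29 there were 4 SCR, 2 siPOLR1D-2 and 2 siPOLR1D-3 libraries, and in SW480 there were 6 SCR, 3 siPOLR1D-2 and 3 siPOLR1D-3 libraries. Whether the libraries of a group came from separate cultures was not given in the sources used here, so p-values measure the spread between these libraries, which may be technical. Values are normalized read counts, scaled by the authors within each cell line, and levels are therefore not compared between the lines. An estimate from the smallest values put the depth at 13500000 to 22800000 reads in HT29 and 18700000 to 27600000 in SW480. The RNA is from bulk cultures, so fewer cells with a message and less message per cell cannot be told apart.

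Chaperones of the HSP70 family bind unfolded stretches of other proteins in a cycle that is started by J-domain proteins such as DNAJB1 and reset by exchange factors such as HSPH1 and BAG3. Clients can be passed on to HSP90, small heat shock proteins hold unfolded proteins in solution, and in mitochondria HSPD1 and its lid HSPE1 form the folding chamber for imported proteins. Many of these genes are induced by heat shock factor HSF1, which binds inverted repeats of the bases GAA in their promoters, whereas ATF4 drives a different stress program centered on amino acid supply.

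Colorectal epithelial markers were checked first. Of 10 such genes, 9 in HT29 and 10 in SW480 reached a normalized read count of 10 in at least 1 library, led by KRT8 (mean 95589) in HT29 and KRT18 (mean 89660) in SW480. The summed count of 5 leukocyte markers stayed between 77.9 and 158 in HT29 and between 74.9 and 179 in SW480, with CD68 the most abundant. The sum of 5 fibroblast markers ran from 18.3 to 84.3 in HT29 and from 110 to 1146 in SW480, where COL1A1 was the most abundant (mean 342). The means of SCR and silenced libraries for this sum were 21.4 and 49.8 in HT29 and 614 and 619 in SW480. Endothelial markers summed to at most 14.3 in HT29, where KDR was at 0 in every library, and to at most 143 in SW480. Their part in the results below was not tested.

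On the map, HSPA1A and HSPA1B lie 9788 bases apart on chromosome 6, and HSPD1 and HSPE1 are head to head on chromosome 2. In RefSeq promoter windows of 300 bases on GRCh38.p14, from 250 bases before to 50 after a start site, all 10 members were matched, with 14 windows between them. The paired repeats GAANNTTC and TTCNNGAA, both of which read the same on either strand and can overlap by 3 bases, were searched in them because the members are known targets of HSF1. GAANNTTC was found for 7 of 10 members, in 8 of 14 windows, and in 6.77% of all 35116 windows. TTCNNGAA was found for 3 of 10 members (HSPA8, HSP90AA1 and HSPD1) and in 7.74% of all windows, and 1.02% of all windows held both. No match was found in the windows of HSPH1, BAG3 and HSPE1. The stretches upstream of the start sites that carry the repeats are given because the members are compared as a group, with the matched letters in capitals and 30 bases at most where GENCODE 29 places an exon over them.
HSPA1A, chr6:31815397-31815463, plus strand: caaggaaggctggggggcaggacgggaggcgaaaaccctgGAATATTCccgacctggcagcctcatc
HSPA1B, chr6:31827593-31827680, plus strand: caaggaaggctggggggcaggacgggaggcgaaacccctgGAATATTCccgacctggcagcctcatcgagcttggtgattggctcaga
HSPA8, chr11:123062346-123062375, minus strand: ggcgagcttGAAAGTTCCAGAAcgctgcgg
HSPA8, chr11:123062171-123062200, minus strand: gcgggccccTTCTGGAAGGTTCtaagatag
DNAJB1, chr19:14518421-14518514, minus strand: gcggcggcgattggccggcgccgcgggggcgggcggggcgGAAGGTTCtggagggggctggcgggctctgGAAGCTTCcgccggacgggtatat
HSP90AA1, chr14:102087104-102087133, minus strand: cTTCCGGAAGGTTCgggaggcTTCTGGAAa
HSPB1, chr7:76302451-76302538, plus strand: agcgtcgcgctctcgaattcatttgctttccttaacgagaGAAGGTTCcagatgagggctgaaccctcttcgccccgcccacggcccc
HSPD1, chr2:197500061-197500090, minus strand: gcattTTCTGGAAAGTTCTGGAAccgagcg

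The stretches of HSPA1A, HSPA1B and HSPB1 overlapped no annotated gene, that of DNAJB1 lay inside the DNAJB1 and TECR genes but in no exon, and those of HSPA8, HSP90AA1 and HSPD1 overlapped an exon of the same gene that is used from a start farther upstream. The HSPD1 stretch also overlapped an exon of HSPE1, and the start site of HSPE1 was 105 bases from the outer and 539 bases from the inner start site of HSPD1. Lined up on the repeat, the bases before the start sites of HSPA1A and HSPA1B agreed at 235 of 249 positions.

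POLR1D itself was lower in every silenced library. In HT29 its normalized read counts were 6036, 4711, 4433 and 5010 in the 4 SCR libraries, 3414 and 3492 with siPOLR1D-2, and 2858 and 2550 with siPOLR1D-3. In SW480 the lowest, median and highest counts were 1829, 2030 and 2599 in SCR and 843, 976 and 1336 in silenced libraries. The groups did not overlap in either line. The log2 difference was -0.72 ± 0.14 (SE) in HT29 and -1.04 ± 0.13 in SW480, with limma adjusted p = 0.355 and 0.000991 over all genes tested.

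Some libraries stood apart over the whole transcriptome, and they are named here because several members follow them. In HT29 the first principal component, with 43.3% of the variance, set SCR replicate 1 apart from the others. In SW480 the first component, with 42.0%, split the libraries into a first side of SCR replicates 1, 2 and 3 with siPOLR1D-2 replicates 1 and 2, and a second side of SCR replicates 4, 5 and 6 with siPOLR1D-2 replicate 3 and all 3 siPOLR1D-3 libraries. SCR replicate 1 lay midway, at a score of 14.1, with the rest of the first side at 52.7 to 71.5 and the second side at -53.7 to -21.8, so its place on the first side is a choice. The sides are not given in the labels, and siPOLR1D-3 had no library on the first side. Several SW480 results are therefore also given with the side as a covariate, with SCR replicate 1 on either side, within a side, or without that library. The sides were read from the same values that are tested, so adjusted p-values that use them may be too small.

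HSPA1A and HSPA1B encode the same stress-inducible HSP70 protein, and they cannot be cleanly separated by short reads: 73.6% of the distinct 31-base words of the HSPA1A transcripts in GENCODE 29 also occur in HSPA1B. In HT29 the HSPA1A counts were 8886, 4650, 11262 and 6413 in SCR replicates 1 to 4, 12928 and 13751 with siPOLR1D-2, and 12097 and 11352 with siPOLR1D-3. All 4 silenced libraries were above all 4 SCR libraries, although the siPOLR1D-3 library at 11352 was close to SCR replicate 3. HSPA1B counts in HT29 were 37977, 19735, 35657 and 22023 in SCR, 43629 and 45906 with siPOLR1D-2, and 42614 and 39366 with siPOLR1D-3. Again the silenced libraries lay above all SCR libraries, among which replicates 2 and 4 were low and replicates 1 and 3 high. The fitted differences were 0.76 ± 0.24 (log2, SE) for HSPA1A and 0.63 ± 0.21 for HSPA1B, with limma adjusted p = 0.408 and 0.409.

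In SW480 the lowest, median and highest HSPA1B counts were 2606, 5160 and 14087 in SCR and 9699, 12819 and 15120 in silenced libraries. SCR replicate 1 held the 14087 and lay inside the silenced range, while the other 5 SCR libraries were below every silenced library. HSPA1B was the member that rose past the threshold in SW480, by 1.14 ± 0.31 on the log2 scale or 2.20-fold (limma adjusted p = 0.0411), and 1 of 10 members compares with 2.44% of all 15019 genes called higher. Of 1011 genes called in SW480, 367 were higher, a split that depended on scaling, with 564 of 1042 under upper quartile scaling and 506 of 1109 under quantile normalization. The call was lost on leaving out any library but SCR replicate 1, with adjusted p from 0.00404 to 0.0879 and differences from 0.92 to 1.41. HSPA1A counts in SW480 ran from 724 over a median of 1596 to 4435 in SCR and from 1363 over 3371 to 5186 in silenced libraries. Here the groups overlapped, with siPOLR1D-2 replicate 3 and siPOLR1D-3 replicate 1 at 1363 and 1806 beside the SCR libraries, and the difference was 0.88 ± 0.41 (adjusted p = 0.210). As the split of reads between both genes is uncertain, their sum was also followed. In HT29 it was 46863, 24384, 46919 and 28436 in SCR, 56557 and 59657 with siPOLR1D-2, and 54711 and 50717 with siPOLR1D-3, and in SW480 it ran from 3330 over a median of 6756 to 18522 in SCR and from 11062 over 16189 to 20306 in silenced libraries. The groups were apart in HT29, and in SW480 SCR replicate 1 alone reached into the silenced range. The sum averaged 36651 ± 11940 (SD, n = 4) in SCR and 55411 ± 3735 (n = 4) in silenced HT29 cells (exact permutation test, 2-sided, p = 0.0286, the smallest that 4 against 4 allows). In SW480 the sum was 8249 ± 5370 (n = 6) and 15600 ± 3679 (n = 6), with exact p = 0.0173.

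HSPA8 is the constitutive HSP70 and among the most abundant messages of the list. Its HT29 counts were 27650, 30341, 63810 and 50576 in SCR, 62379 and 80154 with siPOLR1D-2, and 71853 and 70367 with siPOLR1D-3. SCR replicate 3 reached into the silenced range, and SCR replicates 1 and 2 were the lowest of all. In SW480 the lowest, median and highest counts were 23987, 37494 and 90892 in SCR and 54665, 70140 and 85789 in silenced libraries. The highest SW480 value belonged to SCR replicate 1, and the other 5 SCR libraries were below all silenced libraries. The differences were 0.81 ± 0.25 in HT29 (limma adjusted p = 0.408) and 0.80 ± 0.27 in SW480 (adjusted p = 0.0946). Without SW480 SCR replicate 1 the latter was 1.04 ± 0.19 (adjusted p = 0.00899).

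DNAJB1, the J-domain protein that delivers clients to HSP70, was the member whose SW480 values differed between the siRNAs. In HT29 its counts were 528, 439, 557 and 419 in SCR, 509 and 521 with siPOLR1D-2, and 450 and 401 with siPOLR1D-3. The groups overlapped throughout, with a difference of -0.04 ± 0.14 that turned to 0.01 under upper quartile scaling (limma adjusted p = 0.918). In SW480 the SCR counts ran from 606 over a median of 741 to 1117. The siPOLR1D-2 libraries held 1507, 1422 and 1360, all above the SCR range, and the siPOLR1D-3 libraries held 784, 912 and 840, all within it. Over both siRNAs the difference was 0.50 ± 0.19 (adjusted p = 0.141), and with the side as covariate it was 0.58 ± 0.14 (adjusted p = 0.0169), a call that was lost with SCR replicate 1 on the second side (adjusted p = 0.0593).

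HSPH1, an HSP110 protein that resets HSP70, lies on chr13:31134974-31162388, 3.39 Mb from POLR1D on the same chromosome arm. In HT29 its counts were 7604, 8341, 13522 and 11178 in SCR, 17321 and 16943 with siPOLR1D-2, and 14830 and 15247 with siPOLR1D-3. Every silenced library exceeded every SCR library, and HSPH1 had the smallest unadjusted p of the members in this line, with a difference of 0.70 ± 0.18 or 1.62-fold (limma adjusted p = 0.355). In SW480 the counts were 3109, 3696 and 9123 (lowest, median, highest) in SCR and 4922, 6974 and 12409 in silenced libraries. SCR replicates 1 and 2, at 9123 and 7687, stood within the silenced range, and the other 4 SCR libraries were below it. The difference was 0.70 ± 0.30 (adjusted p = 0.177), and 0.85 ± 0.18 (adjusted p = 0.00804) with the side as covariate, or 0.70 ± 0.25 (adjusted p = 0.0672) with SCR replicate 1 on the second side.

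BAG3 releases clients from HSP70 and links them to autophagy. Its HT29 counts were 1324, 1051, 1277 and 862 in SCR, 1487 and 1443 with siPOLR1D-2, and 1426 and 1376 with siPOLR1D-3. The 4 silenced libraries lay close together and above all SCR libraries, with a difference of 0.36 ± 0.14 (limma adjusted p = 0.433). In SW480 it ran from 687 over a median of 896 to 1237 in SCR and from 776 over 1148 to 1243 in silenced libraries. The groups overlapped, and the difference was 0.23 ± 0.17 (limma adjusted p = 0.457). With single libraries left out it ran from 0.14 to 0.33. It was -0.10 ± 0.17 with a replicate block, and 0.46 ± 0.12 with array weights, where it was called (adjusted p = 0.0171).

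HSP90AA1, the inducible cytosolic HSP90, had HT29 counts of 17362, 28448, 42941 and 38703 in SCR, 46209 and 46732 with siPOLR1D-2, and 38159 and 35341 with siPOLR1D-3. Both siPOLR1D-2 libraries were above SCR and both siPOLR1D-3 libraries within its range. In SW480 the lowest, median and highest counts were 53072, 65923 and 121333 in SCR and 86798, 117297 and 196438 in silenced libraries. SCR replicates 1 and 2 overlapped with the silenced libraries and SCR replicates 3 to 6 did not. The differences were 0.46 ± 0.26 in HT29 (limma adjusted p = 0.532) and 0.72 ± 0.24 in SW480 (adjusted p = 0.0874). Without HT29 SCR replicate 1 the former was 0.19 ± 0.16 (adjusted p = 0.706), and without SW480 SCR replicate 1 the latter was 0.86 ± 0.22 (adjusted p = 0.0330). Of the HSP90AA1 31-base words, 29% also occur in other genes, most often in the pseudogene HSP90AA2P.

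HSPB1 (HSP27), the small heat shock protein, was at 1197, 2614, 2986 and 2699 in SCR, 2883 and 2859 with siPOLR1D-2, and 2777 and 2475 with siPOLR1D-3 in HT29. SCR replicate 1 was far below all other libraries, and the difference of 0.29 ± 0.26 (limma adjusted p = 0.665) was -0.01 ± 0.10 without it. In SW480 HSPB1 ran from 1358 over a median of 1693 to 4405 in SCR and from 1812 over 2836 to 4663 in silenced libraries. SCR replicates 1 and 2 and siPOLR1D-2 replicates 1 and 2, all of the first side, were high. SCR replicate 3 of the same side was low, at 1663. The difference was 0.53 ± 0.30 (limma adjusted p = 0.315), or 0.67 ± 0.20 (adjusted p = 0.0360) with the side as covariate. That call was lost with SCR replicate 1 on the second side (adjusted p = 0.145).

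Neither gene of the mitochondrial pair passed the threshold in either line, and the pair was not tested against each other. HSPD1 (HSP60), the chamber, had counts of 53622, 43044, 49045 and 49259 in SCR, 52306 and 53454 with siPOLR1D-2, and 46526 and 44785 with siPOLR1D-3 in HT29. In SW480 the lowest, median and highest HSPD1 counts were 51758, 64230 and 79337 in SCR and 52996, 63717 and 90839 in silenced libraries. The groups overlapped over nearly their whole range in both lines, with differences of 0.02 ± 0.12 and 0.01 ± 0.15 (limma adjusted p = 0.968 and 0.973). HSPE1 (HSP10), the lid, was at 1374, 2087, 3437 and 2679 in SCR, 2951 and 3122 with siPOLR1D-2, and 2909 and 2782 with siPOLR1D-3 in HT29. SCR replicate 3 exceeded all silenced libraries, SCR replicate 1 was lowest, and the difference was 0.37 ± 0.24 (adjusted p = 0.561), or 0.13 ± 0.15 without SCR replicate 1 (adjusted p = 0.795). In SW480 the HSPE1 counts were 1800, 2055 and 4602 in SCR and 2983, 3619 and 5155 in silenced libraries (lowest, median, highest). SCR replicates 1 and 2 lay within the silenced range and SCR replicates 3 to 6 below it. The difference was 0.59 ± 0.24 (adjusted p = 0.149), and 0.69 ± 0.18 (adjusted p = 0.0210) with the side as covariate, or 0.59 ± 0.22 (adjusted p = 0.0783) with SCR replicate 1 on the second side. Reads of HSPD1 and HSPE1 are less certain than most, since 31.3% and 27.2% of their 31-base words occur in other genes.

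**Figure D1:**
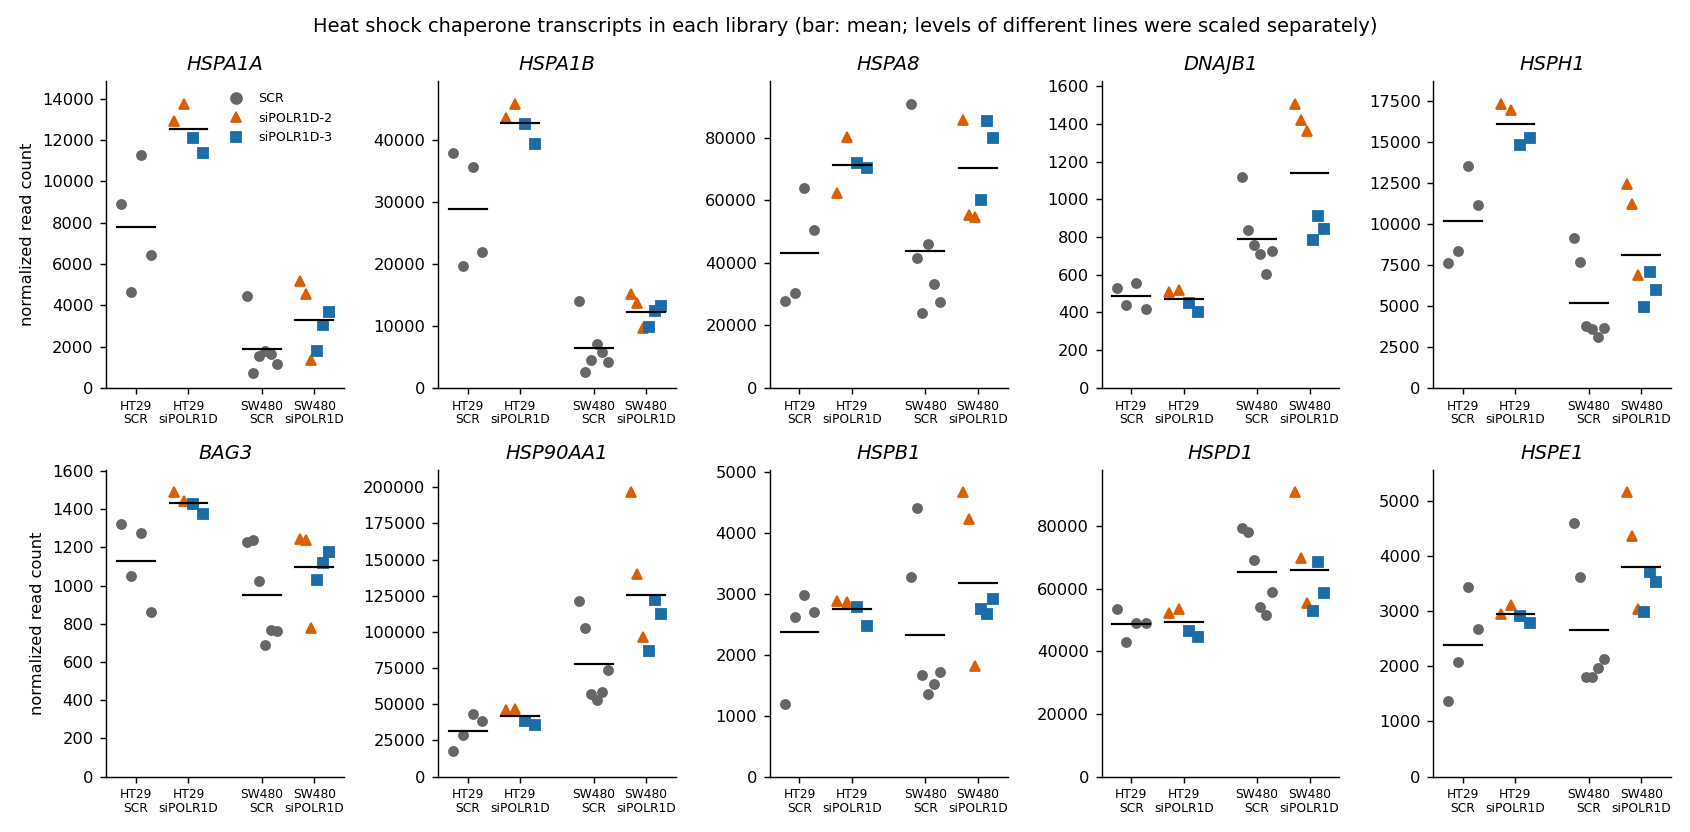
Normalized read counts of the 10 genes in each of the 20 libraries, 1 panel per gene with a vertical axis from 0, for SCR (gray circles), siPOLR1D-2 (orange triangles) and siPOLR1D-3 (blue squares) in HT29 and SW480, in order of replicate number; black bars are the means of all SCR or all silenced libraries. For HSPA1A, HSPA1B, HSPH1 and BAG3 the 4 silenced HT29 libraries sit above the 4 SCR libraries, and SW480 SCR replicate 1, the first gray point, is high in most panels.

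Over the members, fitted differences were above 0 for 9 of 10 genes in HT29 and for 10 of 10 in SW480, against 50% and 51.5% of all genes tested, with DNAJB1 in HT29 turning sign under upper quartile scaling. Their median was 0.42 in HT29 and 0.65 in SW480, while the median over all genes was 0.000195 and 0.0134. With single libraries left out, 8 to 10 members were above 0 in HT29 and 9 to 10 in SW480. None of the 10 passed the adjusted threshold of 0.05 in HT29, where limma called 0 of 13274 genes higher (0%). At an unadjusted p below 0.05, 5 of 10 members were higher in HT29 against 4.66% of all genes, and 7 of 10 in SW480 against 10.4%. The silenced libraries lay above all SCR libraries for 4 of 10 members in HT29 (HSPA1A, HSPA1B, HSPH1 and BAG3) against 2.72% of all genes, and for 0 of 10 members in SW480 against 1.68%. In exact permutation tests, 4 of 10 members in HT29 and 4 of 10 in SW480 were higher with a 2-sided p below 0.05, against 2.72% and 10.2% of all genes. In HT29 these were at the smallest p that 4 against 4 allows, 0.0286. That p is reached only where the groups do not overlap, so the HT29 count repeats the one of libraries lying apart. The members were chosen with earlier results known and share libraries, so these counts describe the list and do not test it.

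**Figure D2:**
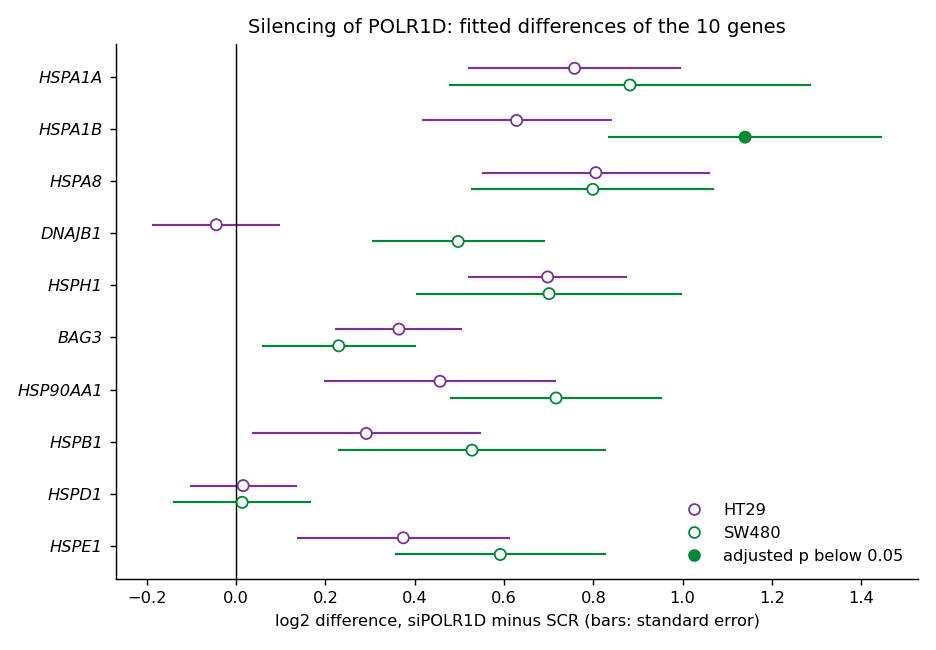
Fitted log2 difference between silenced and SCR libraries (horizontal axis) for each of the 10 genes, in HT29 (purple, 4 against 4 libraries) and SW480 (green, 6 against 6); bars are standard errors and the filled point has a limma adjusted p below 0.05. HSPD1 sits near 0 in both lines, DNAJB1 near 0 in HT29 alone, and HSPA1B in SW480 is the filled point at 1.14.

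The responses of both lines were compared in a fit of all 20 libraries. A difference between SW480 and HT29 was called for 0 of 10 members and for 0.0393% of 12724 genes, and the smallest adjusted p among the members was 0.601 (limma). It belonged to DNAJB1, whose response was 0.54 ± 0.27 larger in SW480 on the log2 scale. That DNAJB1 was near 0 in HT29 and higher in SW480 is thus not shown to be a difference between the lines.

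How many members passed the threshold in SW480 once the side was taken into account depended on where SCR replicate 1 was placed. The side came from the values under test, so calls that use it may be too many. With the side of the first component as a covariate, 6 of 10 members were called higher (HSPA1B, DNAJB1, HSPH1, HSP90AA1, HSPB1 and HSPE1) against 5.41% of all genes. With SCR replicate 1 moved to the second side, 3 of 10 were (HSPA1B, HSPA8 and HSP90AA1) against 6.66%. Within the second side, a comparison added after the data had been seen, 3 SCR libraries were set against 4 silenced ones. There, all silenced libraries were above all SCR libraries for 8 of 10 members, against 12.7% of all genes, and 6 members were called higher (HSPA1B, HSPA8, HSPH1, HSP90AA1, HSPB1 and HSPE1) against 5.59%. Differences on that side ran from 0.10 for HSPD1 to 1.01 for HSPA1B. With SCR replicate 1 counted on that side, the groups overlapped for every member, so that 0 of 10 were apart against 6.99% of all genes, and limma called 0 of 10 against 2.45%, with HSPA1B at 0.67 ± 0.30 (adjusted p = 0.202). On the first side, with 3 SCR and 2 silenced libraries, the groups did not overlap for 5 of 10 members against 15.0% of all genes, and 0 members were called higher, as was true of all genes (0%). Without SCR replicate 1, 4 members were called higher (HSPA1B, HSPA8, HSP90AA1 and HSPE1) against 3.52% of all genes.

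Whether the siRNAs acted alike was asked next. In SW480, DNAJB1 was 0.76 ± 0.18 lower on the log2 scale with siPOLR1D-3 than with siPOLR1D-2 (limma adjusted p = 0.0444), with means of 845 ± 64.3 (SD, n = 3) and 1429 ± 73.9 (n = 3). It was the single member called lower, against 1.69% of all genes. HSPH1 showed a difference of -0.73 ± 0.39, which missed the threshold (adjusted p = 0.285), with 5989 ± 1076 against 10167 ± 2913 counts. All siPOLR1D-3 libraries and 1 of 3 siPOLR1D-2 libraries were on the second side of the first component, so siRNA and side cannot be fully told apart. The siPOLR1D-2 library of the second side, replicate 3, held 1360 DNAJB1 counts, beside 784 to 912 in the siPOLR1D-3 libraries of the same side. In HT29 the siRNAs differed for 0 of 10 members and 0% of all genes in this direction, with DNAJB1 at -0.28 ± 0.19 (adjusted p = 1.00).

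Set against all SCR libraries of SW480, siPOLR1D-2 gave a difference of 0.88 ± 0.17 for DNAJB1 (limma adjusted p = 0.0248), the 1 member called higher with it against 1.27% of all genes. With siPOLR1D-3 the same gene stood at 0.12 ± 0.17 (adjusted p = 0.698), and 0 of 10 members were called higher against 2% of all genes. For HSPA1B the values with siPOLR1D-2 and siPOLR1D-3 were 1.19 ± 0.42 and 1.09 ± 0.41, and for HSPA8 0.69 ± 0.37 and 0.91 ± 0.35. They lay farther apart for HSPH1, at 1.07 ± 0.36 and 0.33 ± 0.34, and for HSP90AA1, at 0.91 ± 0.31 and 0.52 ± 0.27. Both sets share the SCR libraries, and their values are therefore placed side by side only.

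**Figure D3:**
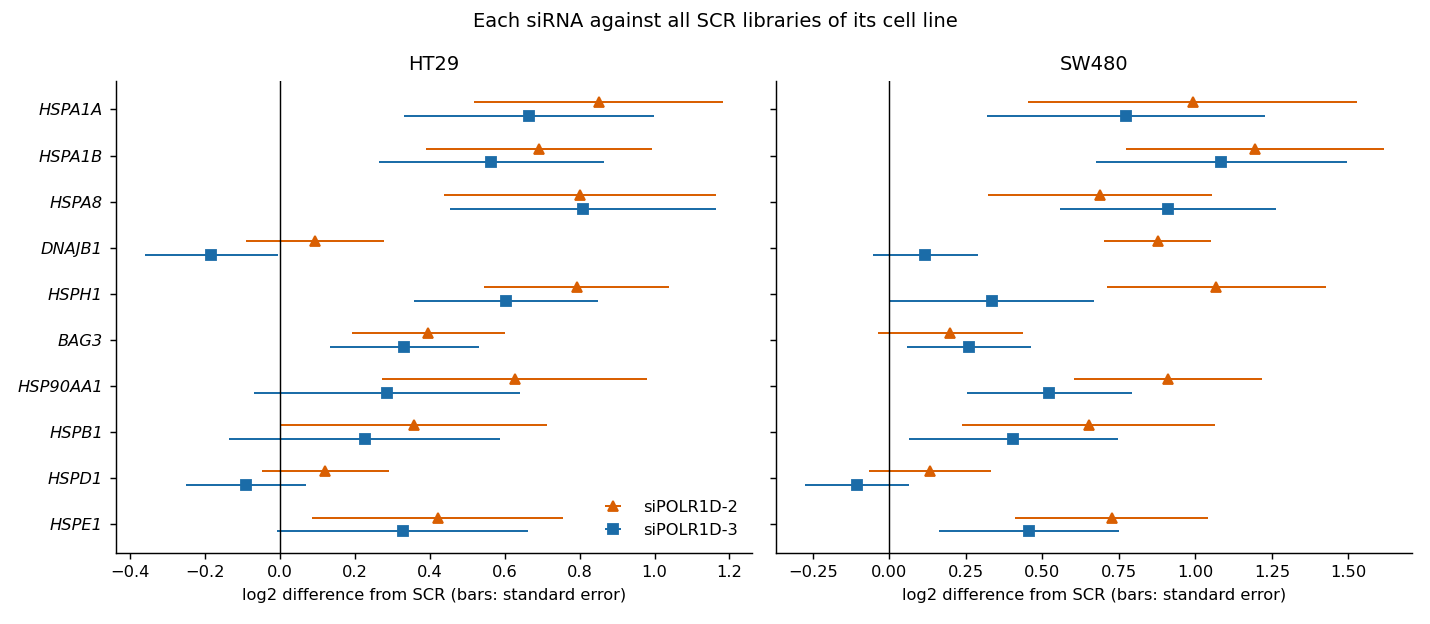
Log2 difference of siPOLR1D-2 (orange triangles) and siPOLR1D-3 (blue squares) from all SCR libraries of the same line for the 10 genes, with standard errors, in HT29 (left) and SW480 (right); the horizontal scales differ. In SW480 the symbols of DNAJB1 lie at 0.88 and 0.12, the widest gap of the list, and those of HSPA1B at 1.19 and 1.09.

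None of the heat shock factors HSF1, HSF2 and HSF4 passed the threshold in either line. HSF1 was at 1595 ± 505 (SD, n = 4) in SCR and 1367 ± 189 (n = 4) in silenced HT29 libraries, and at 954 ± 85.0 and 923 ± 118 (n = 6 each) in SW480. HSF1 occurs as 2 identical rows in the files, so these summed counts are 2 times the deposited value, which leaves its difference nearly untouched. The HSF1 differences were -0.18 ± 0.21 and -0.05 ± 0.11, those of HSF2 were 0.03 ± 0.22 and 0.07 ± 0.10, and those of HSF4 were 0.22 ± 0.36 and 0.41 ± 0.29 (limma adjusted p = 0.815 and 0.429). The median difference over a list of 16 heat shock factors and regulators was 0.04 in HT29 and -0.00309 in SW480.

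Of 24 other genes for HSP70, HSP40 and HSP110 proteins and for partners of HSP70 such as the BAG proteins, 22 were tested in each line. Differences were above 0 for 13 in HT29 and 14 in SW480, against 50% and 51.5% of all genes. In each line limma called 0, and 1 of 22 was higher and 1 lower at an unadjusted p below 0.05, against 4.66% higher and 6.05% lower of all genes in HT29 and 10.4% and 12.8% in SW480. The median difference was 0.06 in HT29 and 0.03 in SW480. On leaving out single libraries the median ran from 0.0235 to 0.121 in HT29 and from -0.0101 to 0.0888 in SW480, where 10 to 17 genes were above 0. DNAJA1, the J-domain protein of the cytosol that works with HSPA8, came closest to the members, with 5176 ± 1768 and 7053 ± 537 counts in HT29 and 5534 ± 2189 and 7689 ± 1129 in SW480. Its differences were 0.51 ± 0.22 (limma adjusted p = 0.454) and 0.54 ± 0.19 (adjusted p = 0.115). DNAJB5 was on the other side of 0 in both lines, at -1.08 ± 0.46 and -0.50 ± 0.23 (adjusted p = 0.454 and 0.208).

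Among 16 genes for HSP90 and its co-chaperones, 12 in each line had differences above 0, against 50% and 51.5% of all genes, with medians of 0.12 and 0.08. With each library left out these medians ran from 0.0543 to 0.215 and from 0.0349 to 0.15, and 10 to 13 genes in HT29 and 9 to 13 in SW480 were above 0. By limma 0 were called, and at an unadjusted p below 0.05 there were 2 higher in HT29, against 4.66% of all genes, and 1 lower in SW480, against 12.8%. The latter was TTC4, at -0.48 ± 0.15 (limma adjusted p = 0.0725). FKBP4, an HSP90-bound immunophilin, had 2316 ± 590 counts in SCR and 3590 ± 447 in silenced HT29 cells, without overlap, and a difference of 0.66 ± 0.17 (limma adjusted p = 0.355). In SW480 the FKBP4 difference was 0.51 ± 0.26 (adjusted p = 0.257). CHORDC1 was at 0.59 ± 0.18 and 0.42 ± 0.20 (adjusted p = 0.408 and 0.220). HSP90AB1, the constitutive counterpart of HSP90AA1, was at 0.12 ± 0.12 and 0.05 ± 0.14. The other small heat shock proteins were mostly too low to test, with 1 of 5 tested in HT29 and 2 of 5 in SW480.

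Of 22 mitochondrial chaperone, protease and import genes, 17 in HT29 and 14 in SW480 had differences below 0, against 50% and 48.5% of all genes, with medians of -0.08 and -0.13. HSPA9, the HSP70 of the matrix, was at 36413 ± 10945 and 25295 ± 3040 counts in HT29 (-0.49 ± 0.20, limma adjusted p = 0.441) and at 34845 ± 8483 and 27961 ± 8862 in SW480 (-0.34 ± 0.20, adjusted p = 0.322). GRPEL2, an exchange factor for it, was at -0.69 ± 0.18 (limma adjusted p = 0.355) and -0.53 ± 0.20 (adjusted p = 0.128). GRPEL1 of the same list lay on the other side of 0, at 0.35 ± 0.15 (adjusted p = 0.458) and 0.23 ± 0.23 (adjusted p = 0.602). The protease subunit CLPP rose in SW480 by 0.51 ± 0.14 (adjusted p = 0.0486) and was the 1 gene of 22 that was called, against 2.44% of all genes called higher. Without HT29 SCR replicate 1, 13 genes were below and 9 above 0 in that line, and the median was -0.02.

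Chaperones of the endoplasmic reticulum answer to a different stress. In HT29 all 17 genes of a list of them and related genes had differences below 0, against 50% of all genes, with a median of -0.89. There limma called 0, and 4 were lower at an unadjusted p below 0.05, against 6.05% of all genes. HSPA5 (BiP), their central HSP70, had 22981 ± 26376 counts in SCR and 7107 ± 221 in silenced HT29 libraries, a spread set by SCR replicate 1. Without that library the list median was -0.32, and all 17 genes were still below 0. In SW480, 11 of 17 genes were below 0, against 48.5% of all genes, the median was -0.05, and 3 genes fell past the threshold, against 4.29% of all genes. These were HERPUD1 (-1.29 ± 0.23, limma adjusted p = 0.00725), HSPA13 (-1.01 ± 0.18, adjusted p = 0.00678) and SIL1 (-0.60 ± 0.17, adjusted p = 0.0490). HSPA13 is among the genes that the study picked from the same libraries, so its call is not independent evidence. HERPUD1 is not itself a chaperone.

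Of 18 genes of the ATF4 branch, 17 of 17 tested in HT29 and 17 of 18 in SW480 had differences below 0, with medians of -1.55 and -1.34, against 50% and 48.5% of all genes below 0. In SW480, 14 were called lower, against 4.29% of all genes, and in HT29 limma called 0, with 15 lower at an unadjusted p below 0.05, against 6.05% of all genes. Several genes of this list were picked by the study from the same libraries, so its direction is not independent evidence. ATF4 had 4579 ± 983 and 2762 ± 208 counts in HT29 (-0.71 ± 0.16, limma adjusted p = 0.355) and 6832 ± 857 and 3939 ± 880 in SW480 (-0.81 ± 0.14, adjusted p = 0.00649). DDIT3 (CHOP) was at -2.55 ± 0.80 (adjusted p = 0.408) and -1.74 ± 0.40 (adjusted p = 0.0224). ASNS, the asparagine synthetase, fell in SW480 (-1.79 ± 0.23, adjusted p = 0.00166), from 11132 ± 4375 to 3108 ± 704 counts.

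**Figure D4:**
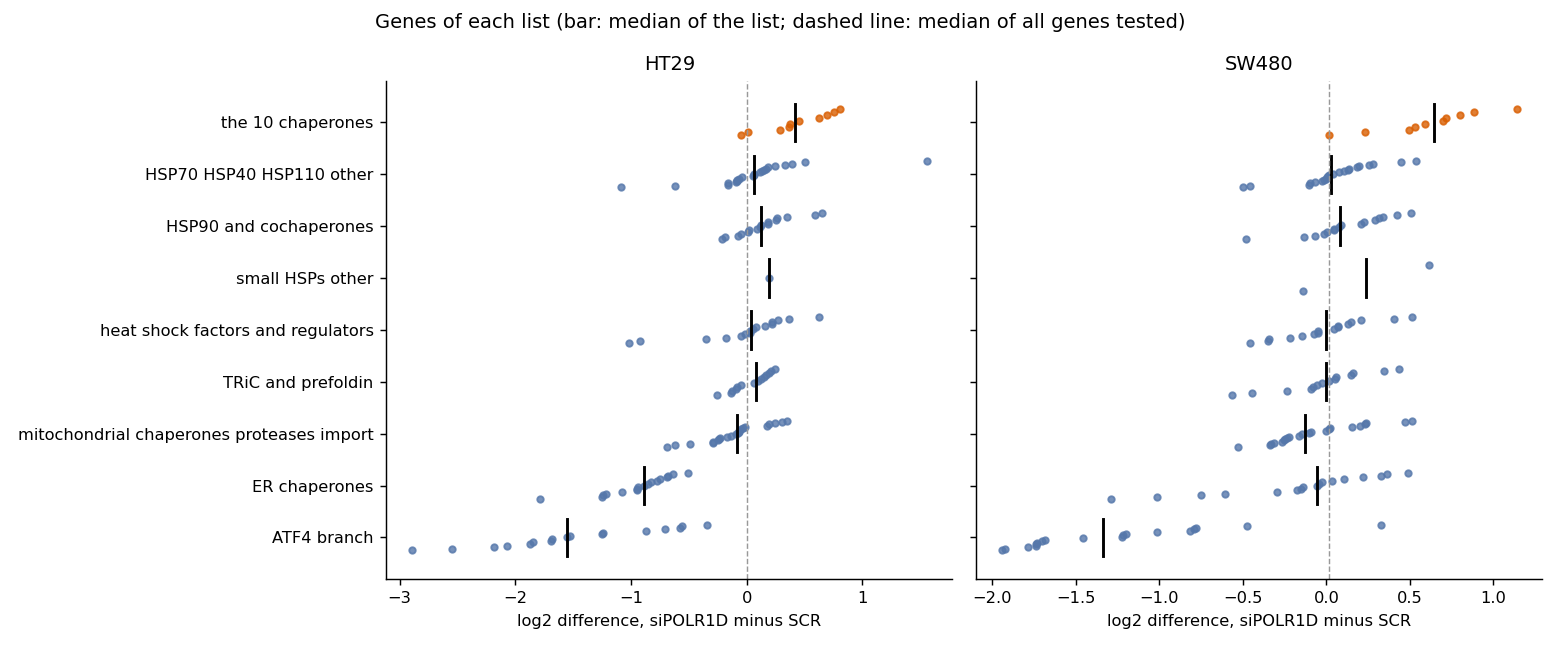
Log2 difference between silenced and SCR libraries of every tested gene, 1 row per list, in HT29 (left) and SW480 (right), on scales of their own; black bars are list medians and the dashed line is the median of all genes tested. The 10 chaperones (orange) have medians of 0.42 and 0.65, and the ATF4 list has medians of -1.55 and -1.34.

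Each library was placed by its median log2 difference from the SCR mean, over the 10 chaperones and over the ATF4 list. In HT29, SCR replicate 3 was at 0.43 for the chaperones and -1.16 for the ATF4 list, close to the silenced libraries, whose chaperone medians were 0.30 to 0.55 and ATF4 medians -1.84 to -1.39. SCR replicates 1 and 2 were at -0.12 and -0.15 for the chaperones and at 1.02 and 0.60 for the ATF4 list. Replicate 4 lay between, at 0.10 for the chaperones and -0.36 for the ATF4 list. In SW480, SCR replicate 1 was at 0.81 and -1.02, within the silenced libraries, which ran from 0.21 to 1.13 for the chaperones and from -1.67 to -0.66 for the ATF4 list. The other SW480 SCR libraries were mixed. Replicates 2, 4 and 5 had the same sign on both lists, at 0.35 and 0.51, -0.31 and -0.16, and -0.32 and -0.13 for the chaperones and the ATF4 list, and replicates 3 and 6 had opposite signs, at -0.31 and 0.51 and at -0.28 and 0.52. Which property of the SCR libraries goes with these values was not tested.

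**Figure D5:**
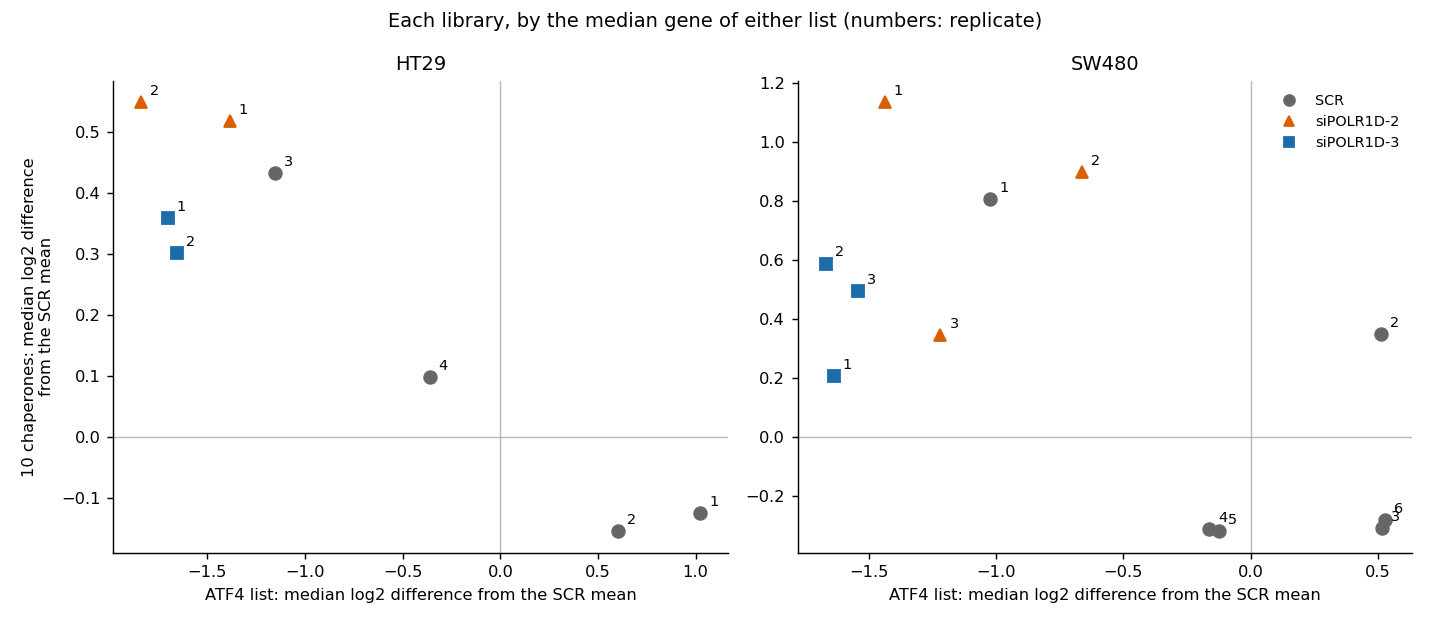
Each library by its median log2 difference from the SCR mean over the ATF4 list (horizontal axis, 17 genes in HT29 and 18 in SW480) and over the 10 chaperones (vertical axis), with the replicate number beside each SCR (gray), siPOLR1D-2 (orange) and siPOLR1D-3 (blue) library. SCR replicate 3 of HT29, at -1.16 and 0.43, and SCR replicate 1 of SW480, at -1.02 and 0.81, lie at the upper left with the silenced libraries.

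Genes with a profile like that of HSPA1A plus HSPA1B were ranked by the lower of their Pearson correlations over the 8 HT29 and the 12 SW480 libraries, as a description only, since libraries share their group, depth and component side. Among 12722 genes the 5 closest were DOLK (r = 0.88 in HT29 and 0.80 in SW480), RAB3A (0.84 and 0.79), F12 (0.82 and 0.78), DNAJA1 (0.78 and 0.82) and RPUSD2 (0.80 and 0.77). HSPA8 ranked 67 (0.63 and 0.82), HSPH1 130 (0.68 and 0.59) and HSPB1 3870 (0.00471 and 0.38). The genes closest to HSPD1 were PSMA5 (0.88 and 0.88), TRAPPC1 (0.89 and 0.83), UTP11 (0.80 and 0.88), CCDC58 (0.80 and 0.87) and SUGT1 (0.80 and 0.83). Its partner HSPE1 ranked 5124 of 12723, with r = -0.10 in HT29 and 0.68 in SW480.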

How the data were processed

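The authors quantified paired-end reads with kallisto 0.44.0, summarized them per gene and deposited signal values, which are read counts normalized with DESeq2 1.24.0 within each cell line (build hg38 in the submitters' processing notes). In these values 21.0% to 49.1% of low values per library were whole multiples, within 0.01, of the value taken as 1 read, so whole reads were not recovered and limma replaced a count test. Rows of the same name were summed. Genes had to reach 10 in a number of libraries equal to the size of the smaller group (13274 in HT29, 15019 in SW480, 12724 in both) and were tested on log2(value + 1) with limma 3.58.1 in R 4.3.3, an empirical Bayes trend, no covariate and Benjamini-Hochberg adjustment over all genes tested, called at an adjusted p below 0.05. Differences are on that log2 scale. Single members were also compared by exact 2-sided permutation of libraries with scipy 1.17.1. Named genes were the members, POLR1D, 7 fixed genes, up to 4 genes per list and line with the smallest unadjusted p, and the 5 closest profiles. The members and lists were chosen with earlier results of these data known. Alternatives covered the pseudocount, filter, scaling, variance model, weights, block, siRNA, covariate and left-out libraries. Promoter windows are from RefSeq, gene models and transcripts from GENCODE 29.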

Additional observations from a re-analysis of the deposited data

Results flagged for a closer look

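Of 40 groups of libraries (10 members in the SCR and silenced arms of each line), 2 held a library far from the rest, where chance would give about 2. In SW480 SCR replicate 1, HSPA1A stood at 4435 normalized read counts while the other 5 SCR libraries ran from 724 to 1778. In the same library HSPA8 was at 90892, with the others between 23987 and 46156. A difference between the lines in the response to silencing was called for 0 members, which does not show that the responses were equal.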

How the results depend on the processing

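In HT29, 0 genes were called and 1422 had an unadjusted p below 0.05 (limma). With a replicate block, 735 genes and 4 members were called there. SCR libraries without a silenced library of the same number drop out of a blocked difference. These were replicates 3 and 4 in HT29 and replicates 4, 5 and 6 in SW480. The blocked fits of both lines thus changed 2 choices at once, and the moves cannot be put down to either. With both lines in 1 fit, 4 HT29 genes were called. With each library left out, the counts in HT29 were 0 to 1 genes and 0 members. In SW480, 1011 genes and 1 member became 3057 and 8 with array weights, 0 and 0 with a replicate block, 1821 and 3 at a threshold of 0.1, 1993 and 6 with the side covariate, 2487 and 3 with SCR replicate 1 moved to the second side in it, 0 and 0 within the first side and 1897 and 6 within the second, or 996 and 0 with SCR replicate 1 on it, the moves and within-side fits being chosen after seeing the data. siPOLR1D-2 alone gave 582 genes and 1 member, and siPOLR1D-3 alone 908 and 0. The members called were 2 with upper quartile scaling, 3 with quantile normalization, and 0 without a filter or without the trend. Left-out libraries gave 534 to 1283 genes and 0 to 4 members. The difference between lines, 5 genes, became 3 without the trend, 97 with a replicate block and 2 to 17 with libraries left out. The cause was not tested. The share of called SW480 genes that were higher was 36.3%, 54.1% with upper quartile scaling and 45.6% with quantile normalization.

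No pairing of libraries by replicate number was seen, which does not show that there was none. Same-numbered SCR and silenced libraries had residual correlations of -0.13 to 0.03 in HT29 and -0.41 to 0.57 in SW480. Those of other numbers ran from -0.19 to 0.21 and from -0.60 to 0.60. Of 150 member differences under other settings in HT29, 142 kept direction and call, 4 gained a call and 4 turned: DNAJB1 to 0.00671 with upper quartile scaling and 0.0937 with siPOLR1D-2 alone, and HSPD1 to -0.00518 with array weights and -0.0903 with siPOLR1D-3 alone. Of 200 in SW480, 164 kept direction and call, 7 lost a call, 25 gained one and 4 turned. BAG3 turned to -0.10 and HSPD1 to -0.22 with the replicate block. In that fit only SCR libraries that share a number with a silenced library enter the difference. HSPD1 also turned to -0.11 with siPOLR1D-3 alone and to -0.0373 within the second side with SCR replicate 1 on it. With libraries left out, DNAJB1 ran from -0.11 to 0.0294, HSPB1 from -0.00979 to 0.43 and HSPD1 from -0.0425 to 0.0631 in HT29, and HSPD1 from -0.0830 to 0.0739 in SW480; all other members stayed above 0.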

Other observations

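The cytosolic chaperonin TRiC, a ring of related subunits that folds actin and tubulin, had 1 subunit called in SW480. CCT4 fell by 0.44 on the log2 scale (SE 0.11, limma adjusted p = 0.0359), from 11368 ± 1898 to 8307 ± 839 normalized read counts (SD, n = 6 each), and all 6 silenced libraries were below all SCR libraries. CCT8 was at 8651 ± 1696 and 11661 ± 2044 counts, a difference of 0.44 ± 0.14 that missed the threshold (adjusted p = 0.0876), and TCP1 was at 0.34 ± 0.15 (adjusted p = 0.181). The prefoldin gene PFDN2 came closer to the threshold in the other direction, at -0.57 ± 0.17 (adjusted p = 0.0666). Of 14 TRiC and prefoldin genes, 1 was called lower, against 4.29% of all genes, 7 lay above and 7 below 0, with a median of -0.00292. In HT29 CCT4 was at -0.09 ± 0.09 and CCT8 at 0.10 ± 0.12, and 0 of the 14 were called; the difference between lines missed the threshold for both (adjusted p = 0.553 and 0.695).

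Limits apply to all of these values. Each line is 1 culture model with few libraries, SCR libraries differed among themselves by more than many of the differences given, and single SCR libraries, among them replicates 1 and 3 in HT29 and replicate 1 in SW480, had much influence. Normalized counts hide the depth of each gene, so counting error cannot be given. Reads shared by HSPA1A and HSPA1B, or with pseudogenes, cannot be assigned with certainty. RNA levels say nothing of protein or folding activity, and a motif match is not a bound site.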
